A study of Mus musculus with 15 samples.

Results

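The RNA polymerases I, II and III are the 3 nuclear enzymes that copy DNA into RNA, and the transcripts that encode their subunits were followed in single mouse oocytes. The members were all protein-coding genes whose symbol begins with Polr1, Polr2 or Polr3, which gave 28 of the 28785 features with a count. Of these, 3 belong to polymerase I (Polr1a, Polr1b, Polr1e), 2 are shared by polymerases I and III (Polr1c, Polr1d), 8 belong to polymerase II (Polr2a, Polr2b, Polr2c, Polr2d, Polr2g, Polr2i, Polr2j, Polr2m), 5 are shared by all 3 enzymes (Polr2e, Polr2f, Polr2h, Polr2k, Polr2l) and 10 belong to polymerase III, the catalytic Polr3a and Polr3b among them.

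The mature oocytes were 6 at metaphase of the second meiotic division (MII1 to MII6), the ovulated egg. Their donors received 7 IU of pregnant mare serum gonadotropin, then human chorionic gonadotropin (7 IU) after about 48 h, and the eggs were taken from the oviducts after 20 h more and freed of cumulus cells with hyaluronidase at 300 IU/mL. They were set against 9 fully grown oocytes at the germinal vesicle stage (GV1 to GV9), collected 44 h after the first hormone alone. All mice were females of about 6 to 8 weeks, and the labels give neither a strain nor which animal an oocyte came from. Each library is 1 oocyte, made with MATQ-seq, a total-RNA method that starts with annealing cycles at low temperature and amplifies the cDNA by PCR. Since no animal is named, each stage counts as 1 sample. No test was therefore made, and each difference stands beside the spread between oocytes.

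Polymerase I makes the large ribosomal RNA precursor, polymerase II makes messenger RNA, and polymerase III makes transfer RNA and other short RNAs. The enzymes are built alike, around a catalytic pair of large subunits, with a stalk, an alpha-like pair and small zinc-binding subunits, and 5 small subunits are common to all of them. A fully grown oocyte has largely stopped transcription, and the egg transcribes next to nothing, so the transcripts measured at these stages are mostly a store laid down during growth, which is translated or degraded during maturation.

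Libraries of MII oocytes held 808641 to 2348281 counts and those of GV oocytes 3687610 to 7103063 counts. The members took 554 to 1367 counts per MII oocyte and 5131 to 12313 counts per GV oocyte. A single feature without a symbol, ENSMUSG00000119584, took 15.7 to 61.2% of the counts in MII oocytes and 0 to 11.2% in GV oocytes, and without it the members held 0.0785 to 0.114% in MII oocytes and 0.134 to 0.233% in GV oocytes. The GV files fall into 2 sets by their column headers, GV1 to GV6 and GV7 to GV9, and the MII files have another header. Nothing in the sources used here says what these headers mean, and the header of the MII files and the stage cannot be told apart. The 12 oocyte markers were all measured, with sums of 8206 to 17400 CPM (counts scaled to a common total, here without that feature) in MII oocytes and 8044 to 30240 in GV oocytes. The egg coat gene Zp3 was the most abundant of them per length, at 19388 counts in MII and 332350 in GV. Another coat gene, Zp2, had 562 counts in MII and 44945 in GV, and Zar1, a maternal-effect gene, had 6469 in MII and 40250 in GV. The 15 markers of cumulus and granulosa cells summed to 37.1 to 127 in MII oocytes, with 6 of them at 0 in all 6, and to 88.9 to 337 in GV oocytes, with 1 at 0 in all 9. Inha, an inhibin subunit and the most abundant of these per length over both stages, had 0 counts in MII oocytes and 1743 in GV oocytes. Cyp19a1, the aromatase of granulosa cells, had 150 counts in MII and 750 in GV, and Nr5a2, a nuclear receptor singled out after its values were seen, had more counts than Inha, 301 in MII and 3679 in GV. The 11 blood and immune markers summed to 1.87 to 24.3 in MII oocytes and 0.206 to 8.34 in GV oocytes, and the only one of them measured was Cd68, a macrophage marker with 52 counts in MII and 132 in GV. The 8 oviduct markers summed to 616 to 1492 in MII oocytes and 541 to 1325 in GV oocytes; Cdh1, which oocytes also express, was the only one of them measured. The part of other cells in the results was not tested.

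A level is given here as the count of a gene divided by the count of the median measured gene of the same oocyte, and is called times the median gene. Genes that reached 5 CPM of all counts in either stage, 10090 in all, are called measured. The log2 ratio MII/GV compares summed CPM and is given relative to that of the median measured gene, which was itself at -0.98. A spread follows the sign ±: it combines the SDs over oocytes of the log2 level in MII and in GV, and it is not an error of a mean. On this scale the markers named above had ratios of -0.93 ± 1.11 (Zp3), -3.15 ± 1.10 (Zp2), 0.53 ± 0.81 (Zar1), 0.85 ± 1.84 (Cyp19a1), 1.84 ± 2.97 (Cd68) and 0.59 ± 0.77 (Cdh1). Nr5a2 stood at a median of 2.07 times the median gene in MII oocytes and 2.98 in GV oocytes. Inha, at 0 in MII, was at least 127-fold lower in CPM there if the MII oocytes are given 3 counts together, which puts its log2 ratio at -6.01 or below relative to the median gene.

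Of the 28 members, 25 were measured. A ratio at least 2-fold lower in MII oocytes was found for 3 of the 25 (12%), Polr2k, Polr2i and Polr2l, against 15.5% of all measured genes. A ratio at least 2-fold higher in MII oocytes was found for 1 of the 25 (4.0%), Polr3c, against 12.1% of all measured genes. The other 21 lay within 2-fold of the median gene. With this centring neither share was larger than in the background. In total CPM, without the centring, 15 of the 25 (60.0%) were at least 2-fold lower, against 49.1% of all measured genes, and 0 were higher, against 2.01%. The median over the 25 was -0.21 ± 0.40, with 15 below 0 and 10 above. In total CPM 24 of the 25 (96.0%) were below 0, against 87.5% of all measured genes. The levels of the stages overlapped for every measured member, while in the background 0.922% of genes had all MII oocytes below all GV oocytes and 1.65% had all of them above. Polr2k alone had a ratio larger than its spread, and the share of all measured genes for which this holds is not given here.

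**Figure D1:**
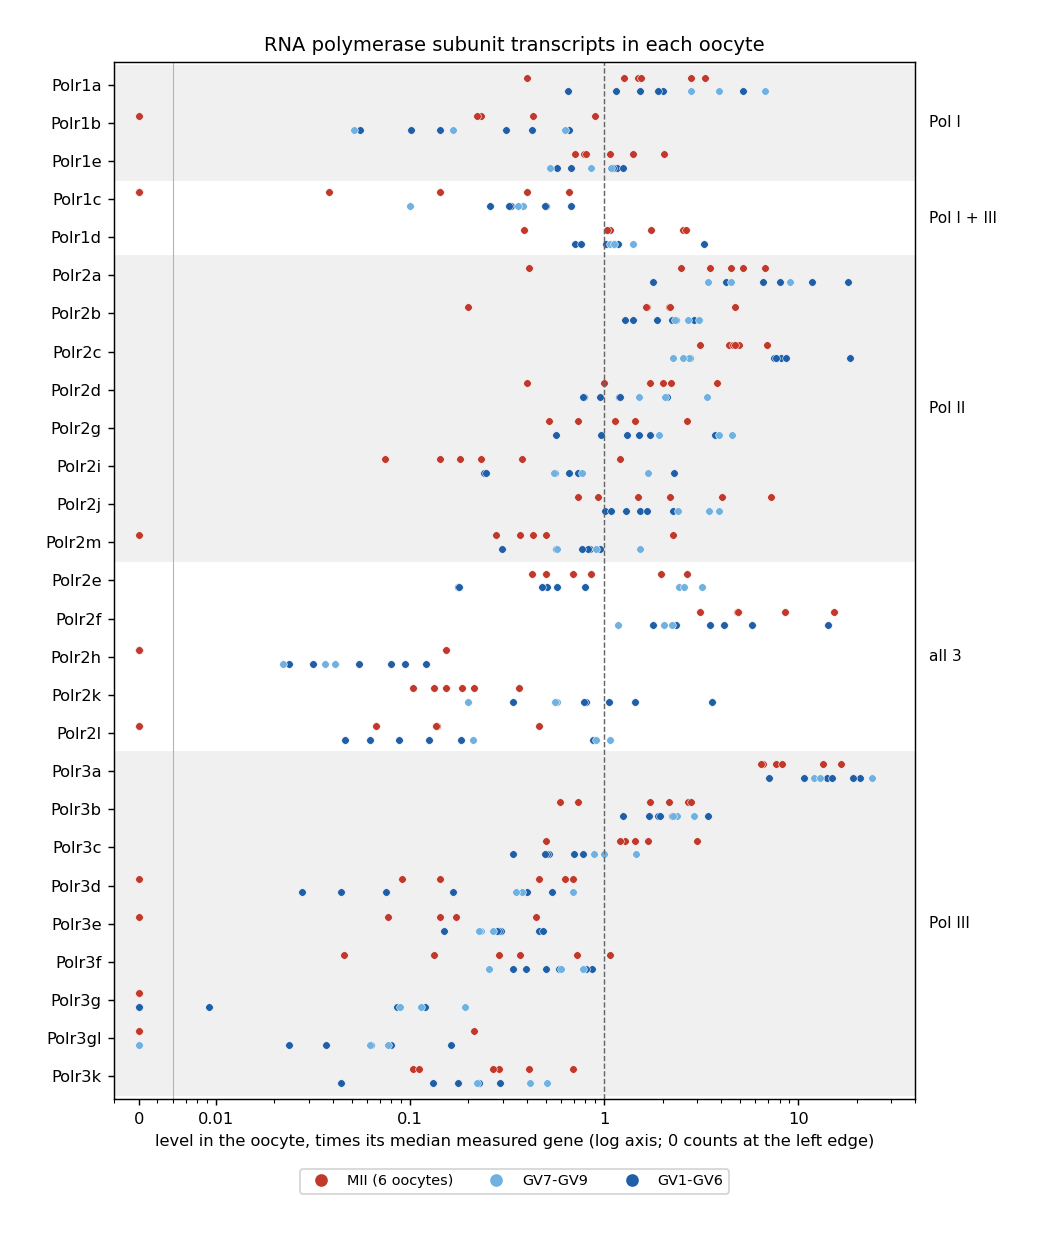
Level of the subunits described in the text in each oocyte, in times the median measured gene of that oocyte, on a log axis with oocytes without a count at the left edge; each point is 1 oocyte, with MII oocytes above GV oocytes in each row. Polr3a is highest in most oocytes at 6.46 to 16.5 in MII and 7.04 to 24.0 in GV, while Polr2h, Polr3g and Polr3gl are near or at 0, most often in MII oocytes.

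The largest subunit of each enzyme carries most of the active site. Polr3a, the largest subunit of polymerase III (ENSMUSG00000025280), had the most counts of all members in both stages, 1392 in MII and 17378 in GV. Its level had a lowest, median and highest value of 6.46, 7.95 and 16.5 times the median gene in MII oocytes, against 7.04, 14.1 and 24.0 in GV oocytes. The ratio was -0.47 ± 0.78, and the ranges overlapped. Polr2a, the largest subunit of polymerase II, which bears the C-terminal repeat domain, had 0.409, 4.01 and 6.72 times the median gene in MII oocytes, against 1.77, 6.61 and 17.9 in GV oocytes. MII6 was far below the other MII oocytes for this gene, and the ratio was -0.83 ± 1.75. Polr1a, the largest subunit of polymerase I, had 0.40, 1.53 and 3.32 times the median gene in MII oocytes, against 0.649, 2.02 and 6.73 in GV oocytes. All 3 ratios were below 0 and within the spread, that of Polr1a at -0.45 ± 1.5.

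Levels of different genes were compared per length, as RPKM, counts per kilobase of exon scaled to the library total without the dominant feature. In summed RPKM Polr3a stood at 40.2 in MII oocytes and 69.3 in GV oocytes, Polr2a at 12.6 in MII and 28.0 in GV, and Polr1a at 3.60 in MII and 6.14 in GV. Polr3a thus had 3.19 times the RPKM of Polr2a in MII oocytes and 2.48 times in GV oocytes. It was the higher of the pair in 6 of 6 MII oocytes and 8 of 9 GV oocytes, and in all 9 GV oocytes when the length of the longest transcript was used. Over Polr1a its RPKM was 11.2-fold in MII and 11.3-fold in GV, and it was higher in all 15 oocytes. Of the summed RPKM of these 3 genes, Polr3a made up a lowest, median and highest share of 59.5, 70.7 and 82.5% in MII oocytes, against 47.3, 69.8 and 85.7% in GV oocytes. Messenger levels, not enzyme amounts, are compared here.

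The catalytic partners did not follow the same order. Polr2b, the second largest subunit of polymerase II, had 9.67 RPKM in MII oocytes and 12.6 in GV oocytes, and Polr3b, its counterpart in polymerase III, had 7.78 in MII and 11.2 in GV. Polr3b was the higher of this pair in 2 of 6 MII oocytes and 4 of 9 GV oocytes, so neither stood above the other. Polr1b, the counterpart in polymerase I, had 1.28 RPKM in MII and 1.38 in GV, below Polr2b in all 15 oocytes. It had no count in 2 of the 6 MII oocytes. The ratios MII/GV were -0.06 ± 1.52 for Polr2b, -0.21 ± 1.04 for Polr3b and 0.21 ± 2.52 for Polr1b. The ratio of Polr1b was -0.68 without MII2.

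**Figure D2:**
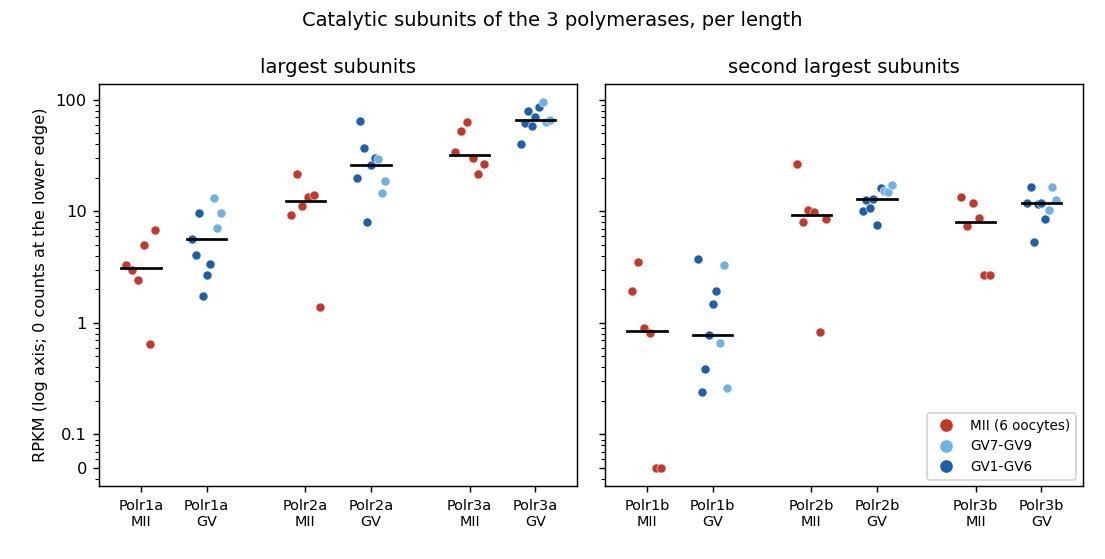
RPKM on a log axis of the largest (left) and the second largest (right) subunits of polymerases I, II and III, MII left of GV for each gene; each point is 1 oocyte, black bars are medians over oocytes, and oocytes without a count lie at the lower edge. Polr3a lies above Polr1a in all 15 oocytes, while Polr3b and Polr2b overlap and Polr1b lies below both.

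The promoter regions of Polr1a and Polr2a are shown because they encode 2 of the 3 largest subunits compared above, Polr2a at the middle and Polr1a at the lowest RPKM. Polr3a, at the highest RPKM, had no promoter entry. The windows run from 250 bases before to 50 bases after the start of the gene, 5′ to 3′ on the gene's strand (RefSeq, GRCm38.p6). GGGCGG and its complement CCGCCC, the letters of a GC box, are in capitals.
Polr2a, chr11:69758584-69758883 (- strand): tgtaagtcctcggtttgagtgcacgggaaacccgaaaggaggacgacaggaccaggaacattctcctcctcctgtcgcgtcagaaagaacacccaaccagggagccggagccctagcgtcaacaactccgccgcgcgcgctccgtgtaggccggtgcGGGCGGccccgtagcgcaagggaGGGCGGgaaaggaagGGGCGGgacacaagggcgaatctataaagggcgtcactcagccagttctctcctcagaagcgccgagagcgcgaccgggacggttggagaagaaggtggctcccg
Polr1a, chr6:71908803-71909102 (+ strand): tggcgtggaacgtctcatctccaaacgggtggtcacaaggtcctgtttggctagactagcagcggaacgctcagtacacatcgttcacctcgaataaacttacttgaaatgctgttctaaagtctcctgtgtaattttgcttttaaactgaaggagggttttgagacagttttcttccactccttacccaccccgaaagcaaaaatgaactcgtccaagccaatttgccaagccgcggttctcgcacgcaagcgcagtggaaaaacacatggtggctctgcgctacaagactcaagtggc
The Polr2a window held the GC box letters 3 times, at 63.7% G and C bases, and the Polr1a window held none, at 48.7%. Of the members, 22 genes with 24 windows had such an entry. The GC box, searched on both strands, was in 62.5% of these windows, against 46.2% of all 21263 promoter windows of that length. CCGGAA, the core letters read by ETS factors, or its complement TTCCGG, was in 45.8% of the members' windows, against 18.7% of all. CACGTG was in 16.7% of the members' windows and 7.84% of all, TATAAA or its complement in 8.33% of the members' windows and 12.6% of all, and CCAAT or its complement in 29.2% of the members' windows and 38.2% of all. These are matches of letters, not sites shown to be bound, and a link between them and the RPKM of a gene was not tested.

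Within polymerase II, 6 of the 8 members had ratios below 0 and the median was -0.61 ± 0.66. This sign was the same under every alternative run. The spread is that of the log2 level of the median polymerase II member in each oocyte. That level differed little between the stages, with a median of 0.61 in MII oocytes and 0.57 in GV oocytes. Its mean was 0.67 in MII and 0.75 in GV. Polr2c, the larger alpha-like subunit, had 3.11, 4.67 and 6.86 times the median gene in MII oocytes, against 2.26, 7.5 and 18.4 in GV oocytes. The GV values split by file set, with GV7 to GV9 at 2.26 to 2.74 and GV1 to GV6 at 2.77 to 18.4, and all 6 MII oocytes lay above GV7 to GV9 and within the range of GV1 to GV6. The ratio was -0.68 ± 1.12 over all GV oocytes, -1.0 over GV1 to GV6 and 0.88 over GV7 to GV9. Polr2j, its smaller alpha-like partner, had 0.731, 1.84 and 7.20 times the median gene in MII oocytes, against 1.01, 1.66 and 3.92 in GV oocytes. Its ratio was 0.35 ± 1.43, with the opposite sign over GV7 to GV9, at -0.47.

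The stalk of polymerase II is made of Polr2d and Polr2g, which bind the emerging transcript. Polr2d had a ratio of 0.38 ± 1.30 and Polr2g one of -0.86 ± 1.28, both within the spread. Polr2i, the zinc ribbon subunit that serves transcript proofreading, had 0.0741, 0.206 and 1.20 times the median gene in MII oocytes, against 0.241, 0.659 and 2.29 in GV oocytes. MII5 was the highest MII oocyte and GV4 the highest GV oocyte for Polr2i, and the ranges overlapped at a ratio of -1.43 ± 1.66. The ratio was -0.98 without GV4 and -2.02 without MII5. Of the exon bases of Polr2i, 26.8% are shared with Tbcb on the opposite strand, and the use of strand in the counting is not stated in the labels. In all 10 of the 28 members share exon bases with a gene on the opposite strand, among them Polr2c (18.1%, with Dok4), Polr2j (15.9%, with Lrwd1) and Polr2f (9.44%, with 1700088E04Rik). Without these 10 the median ratio was 0.23 for polymerase I, -0.69 for polymerase II, 0.15 for polymerase III and -1.28 for the shared subunits. Polr2m, a polymerase II-associated subunit that competes with an initiation factor, had a ratio of -0.54 ± 2.35 and no count in 1 MII oocyte, and the ratio was -1.33 without MII5.

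Of the 4 measured subunits shared by all 3 enzymes, 2 had ratios below 0 and 2 above relative to the median gene, and all 4 were below 0 in total CPM. Polr2k, a small zinc-binding subunit (ENSMUSG00000045996), had 0.103, 0.170 and 0.364 times the median gene in MII oocytes, against 0.199, 0.785 and 3.58 in GV oocytes. GV7 at 0.199 and the lowest of GV1 to GV6 at 0.337 fell within the MII range, and GV4 was the highest. The ratio was -2.57 ± 1.32, the lowest of the 25, from 25 MII counts and 1359 GV counts. In CPM Polr2k had 2.60 in MII (exact Poisson 95% interval 1.68 to 3.83) and 31.0 in GV (29.3 to 32.7), where the intervals cover counting error only, since PCR reads are not independent molecules. Without GV4 the ratio was -1.94, over GV1 to GV6 it was -2.86 and over GV7 to GV9 it was -1.27. The processed pseudogene Polr2k-ps held 2 counts in all, both in GV oocytes.

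Polr2f, which helps to hold the enzyme together (ENSMUSG00000033020), had 3.11, 4.87 and 15.3 times the median gene in MII oocytes, against 1.18, 2.35 and 14.2 in GV oocytes. Its ratio was 0.44 ± 1.34, and it was -0.54 in total CPM. It lay at 0.15 over GV1 to GV6, 1.75 over GV7 to GV9 and 1.03 without GV4, the highest GV oocyte. Polr2e, a jaw subunit, had 0.423, 0.771 and 2.67 times the median gene in MII oocytes, against 0.176, 0.572 and 3.20 in GV oocytes. Among GV oocytes Polr2e stood at 2.42 to 3.20 in GV7 to GV9 and at 0.176 to 0.798 in GV1 to GV6, and the MII values spanned the gap between these sets. Its ratio of 0.07 ± 1.89 was accordingly 1.21 over GV1 to GV6 and -1.37 over GV7 to GV9.

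Polr2l, the other small zinc-binding shared subunit, had no count in 2 of 6 MII oocytes, at 20 MII counts and 448 GV counts. It had 0, 0.102 and 0.462 times the median gene in MII oocytes, against 0.0463, 0.184 and 1.07 in GV oocytes, and the ratio was -1.28 ± 2.39. Without MII3 the ratio was -2.22, and without GV4 it was -0.92. Polr2h, the remaining shared subunit, was not measured, with 4 counts in 1 MII oocyte and 67 counts over all 9 GV oocytes. The median over the 4 measured shared subunits was -0.60 ± 1.01, at -0.28 over GV1 to GV6 and -1.32 over GV7 to GV9. It was 0.34 when the median CPM over oocytes replaced the sum, a setting in which only 3 of them, without Polr2l, reached 5 CPM.

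Among 300 pairs of measured members, the ratio of the 2 counts within an oocyte separated the stages completely for 2 pairs (0.667%), against 1.69% of all pairs of measured genes. Both pairs held Polr2f. The log2 ratio of Polr2k to Polr2f counts had a lowest, median and highest value of -6.53, -4.65 and -3.94 in MII oocytes, against -2.54, -2.13 and -0.71 in GV oocytes. Of the GV oocytes, GV7 to GV9 stood at -2.54 to -1.83. For Polr2c to Polr2f it was -1.69, -0.12 and 0.02 in MII oocytes, against 0.14, 0.50 and 2.11 in GV oocytes, so the gap between the stages was narrow. Neither pair depends on how an oocyte was scaled, since both genes come from the same library.

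**Figure D3:**
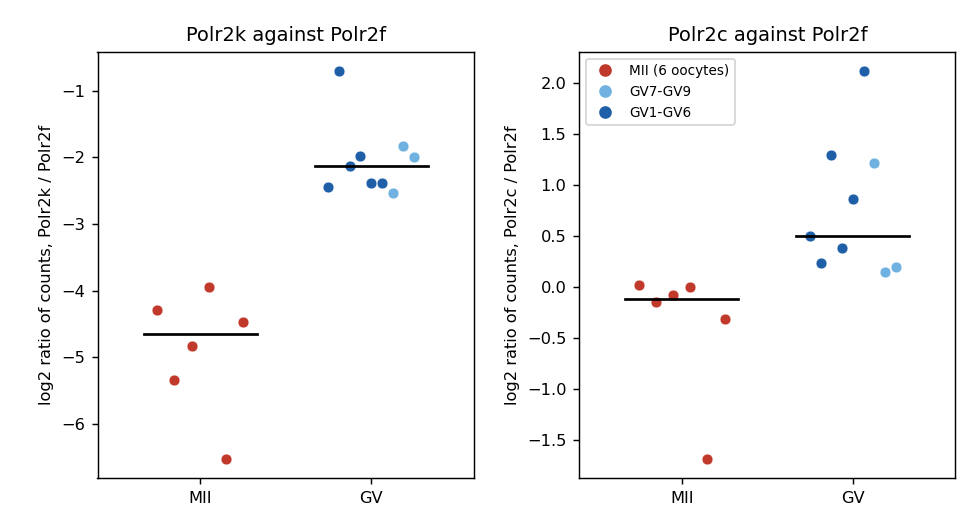
Log2 ratio of counts within each oocyte, Polr2k over Polr2f (left) and Polr2c over Polr2f (right), MII left of GV; each point is 1 oocyte and the bars are medians. The Polr2k values lie at -6.53 to -3.94 in MII oocytes and -2.54 to -0.71 in GV oocytes, without overlap.

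Messengers with a cytoplasmic polyadenylation element near the 3′ end can have their poly(A) tail lengthened during oocyte maturation. The letters TTTTAT or TTTTAAT lay in the last 100 bases of the longest complete coding transcript for 4 of the 25 measured members (16.0%), Polr1c, Polr2b, Polr2f and Polr2k, against 19.9% of 9297 measured protein-coding genes. Polr2h, a shared subunit that was not measured, also had TTTTAT in those bases. Windows of 30 bases of the same kind of transcript (GENCODE M21, GRCm38, transcript strand, 5′ to 3′) are shown for the 4 measured members with the element. They are shown because Polr2f and Polr2k, which differ most among the measured shared subunits, both have it. A window of Polr3a, the most counted member, is shown as well. Capitals mark the element, and the polyadenylation signal letters AATAAA or ATTAAA where they fall in the window and in the last 40 bases. The ATTAAA that overlaps the element of Polr1c lies farther from the end and is not marked.
Polr2f: cccgTTTTATatgtgtaaatAATAAAcctc
Polr2k: tgtaTTTTAATactttgtataaaggaaatt
Polr2b: agaaTTTTATttgttttgtttaaagctaca
Polr1c: tacaTTTTATtaaatgtgccacagacacct
Polr3a: atacattacctttatttatttgttctgagg
The ratios beside these sequences were 0.44 for Polr2f, -2.57 for Polr2k, -0.06 for Polr2b and -0.91 for Polr1c, so members with the element lay on both sides of 0. Over all measured protein-coding genes the median ratio was -0.03 with the element and 0.0 without it. AATAAA or ATTAAA lay in the last 40 bases for 84.0% of the 25 members and 76.9% of all. Polr3a had neither set of letters in its window.

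Polymerase III has a trimer of subunits that serves initiation, Polr3c, Polr3f and either Polr3g or its paralog Polr3gl. Polr3c had 0.50, 1.37 and 3.0 times the median gene in MII oocytes, against 0.337, 0.70 and 1.45 in GV oocytes. Its ratio of 1.02 ± 1.04 was the highest of the 25 and the only one at least 2-fold higher in MII, yet within the spread. Over GV1 to GV6 it was 1.31 and over GV7 to GV9 it was 0.32, and it passed 2-fold by so little that leaving out GV2, GV5, GV6, MII5 or MII6 took it below. Polr3f had a ratio of -0.12 ± 1.57. Polr3g had 0 counts in the 6 MII oocytes, against 74 counts in 6 of 9 GV oocytes. Set against a floor of 3 counts over the MII oocytes, it was at least 5.41-fold lower in CPM in MII, which includes the shift of the median gene; relative to that gene the bound was a log2 ratio of -1.45. Polr3gl had 3 counts, all in 1 MII oocyte, against 70 counts in 7 of 9 GV oocytes. Neither of the paralogs was measured. In GV oocytes Polr3gl stood at 1.02 RPKM and Polr3g at 0.437, and a difference between them was not tested.

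The other polymerase III subunits were low. Polr3d and Polr3e, which form a pair in initiation and termination, had ratios of 0.53 ± 2.37 for Polr3d and -0.93 ± 1.72 for Polr3e. That of Polr3e rests on 21 MII counts in 4 of 6 MII oocytes, and it was -1.78 without MII4. Polr3k, the zinc ribbon subunit that cleaves the transcript, had 0.103, 0.276 and 0.692 times the median gene in MII oocytes, against 0.0440, 0.227 and 0.509 in GV oocytes, with a ratio of 0.42 ± 1.41. Over the 8 measured members of polymerase III the median was -0.16 ± 0.58. It stayed below 0 for both GV sets, at -0.15 and -0.42, but was 0.03 without MII6, 0.04 with every oocyte thinned to the same depth and 0.22 without MII5 and MII6.

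Of polymerase I, Polr1e, which belongs to a pair resembling initiation factors, had 0.704, 0.938 and 2.05 times the median gene in MII oocytes, against 0.526, 1.08 and 1.24 in GV oocytes. Its ratio was 0.25 ± 0.75, the smallest spread among the 25. Polr1d, the smaller alpha-like subunit of polymerases I and III, had a ratio of 0.16 ± 1.20, and Polr1c, the larger one, had -0.91 ± 2.31 on 28 MII counts and -2.12 without MII2. The median over the 3 polymerase I members was 0.21 ± 0.87. It was -0.36 without MII2, -0.10 on totals without the dominant feature and -0.77 in total CPM, so its sign was not stable.

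**Figure D4:**
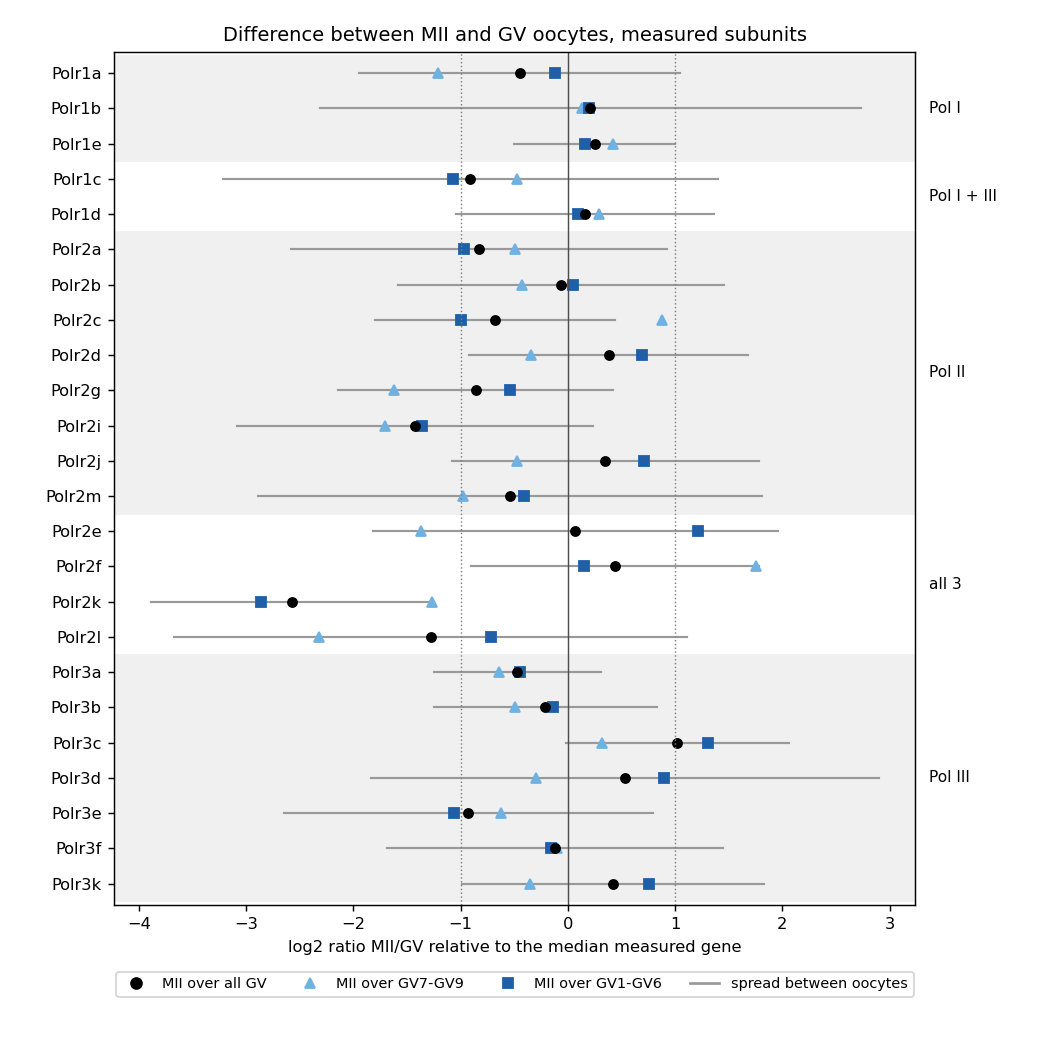
Log2 ratio MII/GV relative to the median measured gene for the measured members described in the text (black circles), with the spread between oocytes as grey lines, and the same ratio over GV7 to GV9 (triangles) and over GV1 to GV6 (squares); dotted lines mark 2-fold. Polr2k at -2.57 is the lowest and Polr3c at 1.02 the highest. Ratios of opposite sign over the 2 sets of GV files are seen for 7 of them, a count without a background share.

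The 2 sets of GV files also differed from each other. Of the 25 members, 9 (36.0%) stood 2-fold or more above GV1 to GV6 in the oocytes GV7 to GV9, against 18.1% of all genes measured in these oocytes, and 3 (12%) stood 2-fold or more below, against 20.2%. The levels of the sets did not overlap for Polr2e, Polr2j and Polr3c, which were higher in GV7 to GV9, and for Polr2c, which was lower there. In the background 10.6% of genes were higher and 6.17% lower without overlap. The log2 ratio of GV7 to GV9 over GV1 to GV6 was 2.64 for Polr2e and -1.82 for Polr2c. The ratios MII/GV over the 2 sets had opposite signs for Polr2b, Polr2c, Polr2d, Polr2j, Polr2e, Polr3d and Polr3k. The share of all measured genes with such a change of sign is not given here.

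Single oocytes also moved several members at once. GV8 had the highest GV level for 8 of the measured members, among them Polr2e and Polr2l. GV4 had it for 7, among them Polr2f, Polr2k, Polr2i and Polr2c. MII5 and MII6 each had the highest MII level for 7. Those of MII5 included Polr2f, Polr2e, Polr2j and Polr3c, and those of MII6 included Polr2k and Polr2c. Genes with under 1 kb of exon in total stood highest relative to those of 4 kb and over in MII5 and GV4. The log2 difference was -0.69 in MII5 against -2.57 to -1.31 in the other MII oocytes, with MII6 at -1.31. It was -0.84 in GV4 against -2.57 to -1.20 in the other GV oocytes, with GV8 at -1.20. The part of exon length in the members' values was not tested. The 3 members at least 2-fold lower in MII were short, Polr2k under 1 kb and the others between 1 and 2 kb of exon. Over all measured genes, 30% of those under 1 kb and 20.2% of those of 1 to 2 kb were at least 2-fold lower, against 14.0% of those of 4 kb and over.

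In the order of the members per length, Polr2k had rank 13 in MII oocytes and rank 2 in GV oocytes, or 15 in MII and 6 in GV with the length of the longest transcript. In GV oocytes its median was 28.9 RPKM, and GV4 was highest at 183. In MII oocytes the highest were Polr2f at 54.4 RPKM, Polr2j at 49.2, Polr2d at 42.1, Polr3a at 40.2 and Polr2g at 21.1, with Polr2k at 6.75. In GV oocytes the highest were Polr3a at 69.3 RPKM, Polr2k at 50.6, Polr2f at 49.8, Polr2j at 48.2 and Polr2g at 47.8. The ranges over oocytes of these neighbours overlap, and with the length of the longest transcript Polr2f came first in both stages. The lowest 3 were Polr2h, Polr3gl and Polr3g in both stages. The levels by enzyme cover measured members only, so Polr2h, Polr3g and Polr3gl are left out of them. The median measured member of polymerase II stood at a median over oocytes of 15.9 RPKM in MII and 21.3 in GV. That of polymerase I stood at 3.48 in MII and 4.03 in GV, and that of polymerase III at 2.61 in MII and 2.68 in GV. Polymerase II was above both of the others in all 15 oocytes. The median measured shared subunit stood at 7.16 RPKM in MII and 11.8 in GV, below polymerase II in 5 of 6 MII oocytes and 7 of 9 GV oocytes. Polr2h, at 0.446 RPKM in MII and 1.03 in GV, would lower this median if it were included.

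Some subunits of these enzymes carry older symbols in the annotation and so are not members. They were added after the tables had been seen. Znrd1, the zinc ribbon subunit of polymerase I, had 0.741, 1.36 and 1.93 times the median gene in MII oocytes, against 0.148, 0.343 and 1.25 in GV oocytes. Its ratio was 1.55 ± 1.0, above its spread, and 1.36 over GV1 to GV6 and 2.14 over GV7 to GV9. Polr2i, its counterpart in polymerase II, went the other way in these sums, so that Znrd1 had 6.09 times the RPKM of Polr2i in MII oocytes and 0.770 times in GV oocytes. Znrd1 was the higher of the pair in 6 of 6 MII oocytes and 3 of 9 GV oocytes. Twistnb, the stalk subunit of polymerase I, had a ratio of -0.99 ± 1.49, and Cd3eap, the partner of Polr1e, had -0.22 ± 1.73. Crcp, a polymerase III stalk subunit singled out after its values were seen, had -2.30 ± 2.43 on 17 MII counts and 774 GV counts, and -3.57 without MII1.

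The factors that work with the polymerases were taken as lists, 6 lists of 107 genes that all had counts. Their median ratios ran from -0.32 to 0.24, where that of all measured genes is 0.0. Over all measured genes, 15.5% were at least 2-fold lower in MII and 12.1% at least 2-fold higher, and each list count stands beside these shares. Of 5 measured polymerase I factors, 0 were at least 2-fold lower in MII and 1 higher, with a median of 0.01. That 1 was Rrn3, which brings polymerase I to its promoter, with 2.93, 4.41 and 6.82 times the median gene in MII oocytes, against 0.726, 1.86 and 2.71 in GV oocytes. The ranges did not overlap, and the ratio was 1.38 ± 0.67. Taf1a, the most abundant and a part of the promoter selectivity factor, had 0.47 ± 0.54, and Taf1d, of the same factor, had the lowest, -0.46 ± 1.14.

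Of 30 measured polymerase II general factors, 2 were at least 2-fold lower and 6 higher, with a median of 0.12. The shares over all measured genes were 15.5% lower and 12.1% higher. Taf8, a subunit of the general factor that recognizes core promoters, was both the most abundant and the highest of them. It had 50.2, 66.4 and 97.3 times the median gene in MII oocytes, against 4.73, 12 and 21.4 in GV oocytes, a ratio of 2.37 ± 0.94 without overlap. Gtf2a1l, a germ cell form of a general factor subunit, had the lowest, -1.31 ± 1.33. Of 28 measured elongation factors and enzymes of the C-terminal domain, 3 were lower and 3 higher, with a median of 0.22. Nelfe, of the complex that pauses polymerase II, had 2.09, 2.63 and 3.45 times the median gene in MII oocytes, against 0.102, 0.687 and 1.73 in GV oocytes, a ratio of 1.85 ± 1.20 without overlap. Rprd1b, which binds the C-terminal domain, had 0 counts in the MII oocytes and 254 in the GV oocytes, at least 18.6-fold lower in CPM in MII against the floor of 3 counts over the stage, or a bound of -3.23 as a log2 ratio relative to the median gene. Ccnk, a cyclin of C-terminal domain kinases and the most abundant of this list, had 0.82 ± 1.34.

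Of 13 measured polymerase III factors, 1 was at least 2-fold lower and 2 higher, with a median of -0.09. Here too the shares over all measured genes were 15.5% lower and 12.1% higher. Gtf3c1, the most abundant and a DNA-binding subunit of the factor that recognizes transfer RNA genes, had 0.73 ± 1.38. Snapc1, of the complex that serves small nuclear RNA genes, had the highest at 1.33 ± 1.32, and Gtf3a, which recognizes the genes of the small ribosomal RNA, the lowest at -1.45 ± 2.54 on 9 MII counts, or -2.06 without MII5. Of 11 measured assembly and import factors, 2 were lower and 1 higher, with a median of 0.24. Ruvbl2, an ATPase of the complex that assembles polymerases, had 41.9, 57.6 and 160 times the median gene in MII oocytes, against 4.49, 8.96 and 16.4 in GV oocytes. Pfdn6, a prefoldin chaperone, had 0, 0.221 and 0.333 times the median gene in MII oocytes, against 0.630, 1.5 and 3.42 in GV oocytes. Neither pair of ranges overlapped, at ratios of 2.69 ± 1.03 for Ruvbl2 and -3.33 ± 1.80 for Pfdn6. Genes named for an extreme ratio are more likely to have separate ranges. Ranges were separate for 3 of these 11 factors, 1 of 5 polymerase I factors and 1 of 30 polymerase II general factors. They were separate for 2 of 28 elongation factors and enzymes, 0 of 13 polymerase III factors and 0 of 3 mitochondrial genes. In the background 0.922% of measured genes were lower in MII without overlap and 1.65% higher. Of 3 measured genes of mitochondrial transcription, 1 was at least 2-fold lower and 0 higher, and all 3 ratios were below 0, with a median of -0.32, with Polrmt, the mitochondrial RNA polymerase, at -0.22 ± 1.40 and Tfb2m, its partner at promoters, at -1.06 ± 1.21.

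**Figure D5:**
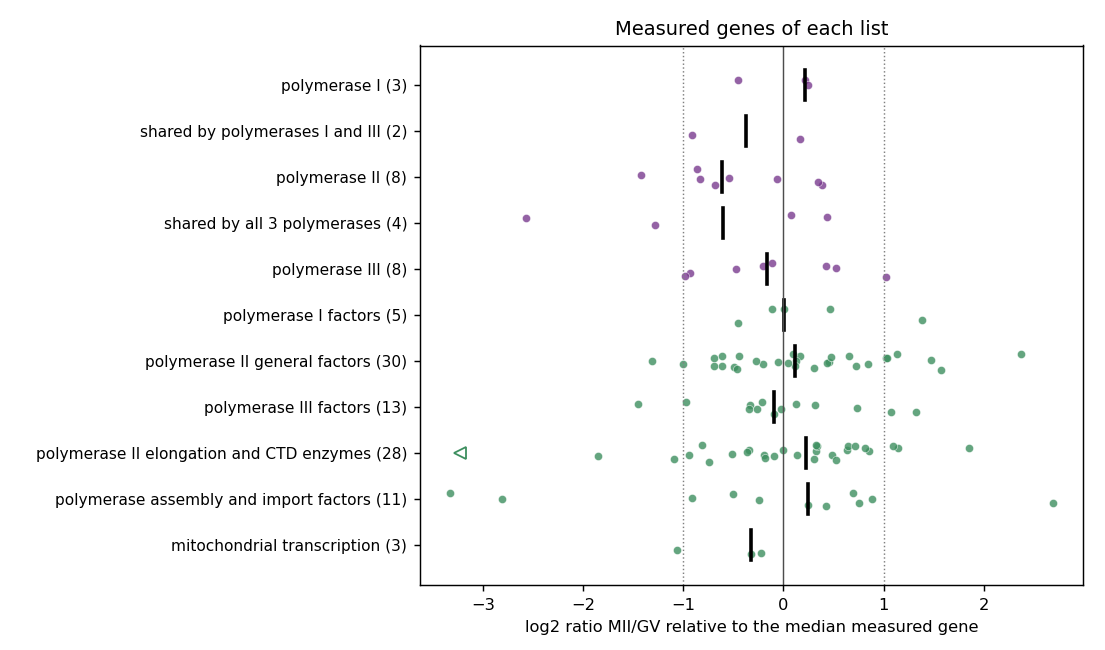
Log2 ratio MII/GV relative to the median measured gene for each measured gene of the subunit groups (purple) and of the lists of factors (green), with the number measured in brackets; black bars are list medians, dotted lines mark 2-fold, and points are spread vertically at random. The open triangle is Rprd1b at its bound of -3.23, as it had 0 counts in MII oocytes; Ruvbl2 at 2.69 and Taf8 at 2.37 are the highest points, both above all subunits.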

How the data were processed

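The authors deposited 1 table of raw read counts for each oocyte, by Ensembl gene ID. The tools cutadapt 4.0 and STAR 2.7.10a and the build GRCm39 are listed in the submitters' processing notes. The counting tool, its annotation and its use of strand were not found in the labels. The labels give 28 PCR cycles. A gene absent from a table was taken as 0 counts. Symbols, exon lengths and transcripts came from GENCODE M21 (GRCm38), and 98.7% of the 28785 IDs had a symbol. Members were matched by symbol. Among 51 pairs of oocytes of 1 stage, the lowest chi-square per degree of freedom over genes was 7.26, so no pair was counted as 1 library.

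Counts were summed per stage, 0.5 was added, and log2 CPM ratios were centred on the median of the genes that reached 5 CPM in either stage. Of the members, 1 is counted in the sums and medians but not reported here by itself, and the others are described; of every other list, the gene most abundant per length and the genes of lowest ratio and of highest ratio are named. The members and lists were chosen with earlier results of these data known. Since each stage is 1 sample, there is no test. The ratio steps were tested on simulated data. Apart from genes given a known ratio, those data had the same mean profile in both stages, and a preset variation between oocytes. They therefore did not cover the uneven share of the dominant feature or the spread seen between these oocytes. Alternatives used edgeR 4.0.16 (TMM factors) and DESeq2 1.42.0 (size factors) for scaling alone, with R 4.3.3, and Python 3.11.15, pandas 2.3.3, NumPy 2.4.6, SciPy 1.17.1 and Matplotlib 3.10.9.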

Additional observations from a re-analysis of the deposited data

Results flagged for a closer look

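In 60 sets of oocytes (25 measured members and 5 group medians, each in MII and in GV), 4 had an oocyte whose gap to its nearest neighbour was large for the range of the group by Dixon's criterion at 95%, and chance alone gives about 1 in 20. The values are log2 levels relative to the median gene. Polr2a was lowest in MII6 at -1.21, with the next MII oocyte at 1.34. Polr2b was lowest in MII5 at -2.10, with the next MII oocyte at 0.73. Polr1c was lowest in GV7 at -3.25, with the next GV oocyte at -1.92. Polr1d was highest in GV4 at 1.70, with the next GV oocyte at 0.49.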

How the results depend on the processing

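The median gene lay at -0.98 in total CPM, and at -0.314, -0.114 and -0.063 with totals without the dominant feature, TMM and DESeq2's factors. In total CPM the medians were -0.77 (polymerase I), -1.60 (II) and -1.14 (III). Members at least 2-fold lower in MII, 3 in the report, numbered 15 in total CPM (60.0%, against 49.1% of all measured genes), 9 with no filter, 8 without the feature, 7 over GV7 to GV9, 6 with TMM, without MII5 and MII6 or without GV1 and GV2, and 5 with median CPM, over GV1 to GV6 or at 1 CPM. Members at least 2-fold higher, 1 in the report, numbered 2 with median CPM, over GV1 to GV6 or with the 3 older symbols, and 0 in total CPM, without the feature, with TMM, DESeq2's factors, mean CPM, 20 CPM, no filter, thinning, without GV1 and GV2 or without MII5 and MII6. Leaving out 1 oocyte gave 1 to 7 lower members (1 without GV4, 5 without GV6, GV7 or MII2, 7 without MII5) and 0 to 1 higher, and medians of -0.36 to 0.34 (I), -0.78 to -0.44 (II), -0.48 to 0.03 (III) and -0.96 to -0.31 (shared). As shares, TMM gave 24.0% of members lower against 17.8% of all measured genes, the totals without the feature 32.0% against 22.5%, no filter 32.1% against 24.8%, median CPM 22.7% against 15.2%, GV7 to GV9 28.0% against 20.7%, and leaving out MII5 28.0% against 15.9%. GV1 to GV6 gave 20.0% against 16.6%, leaving out GV1 and GV2 24.0% against 13.2%, and leaving out MII5 and MII6 24.0% against 17.6%. At 20 CPM it was 12.5% against 9.24%, and leaving out GV2 gave 16.0% against 14.6%. Leaving out GV6 gave 20.0% against 16.4%, GV7 20.0% against 16.2%, and MII2 20.0% against 16.4%. In the remaining settings with a background share, the share of members was below that of all measured genes, as in the report. Without GV4 it was 4.0% against 15.8%, without GV8 8.0% against 15.1%, and at 1 CPM 17.9% against 23.3%. DESeq2's factors gave 16.0% against 16.7%, and thinning gave 16.0% against 17.1%. The cause of these differences was not tested. Runs without both GV1 and GV2, without both MII5 and MII6, with the older symbols and without members that share exon bases were chosen after seeing the data. No paired analysis was possible because the results come from no test, and equal numbers in the 2 stages only name oocytes. Low MII depth limits Polr2h, Polr3g, Polr3gl, Polr2l, Polr3e and Polr2k, with 0 to 25 counts over the stage.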
